A study of Rattus norvegicus with 4 samples.

Results

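The genes described here encode 10 scavenger and phagocytic pattern receptors of macrophages: Marco, Msr1, Cd163, Mrc1, Cd36, Scarb1, Clec7a, Siglec1, Cd68 and Cd14. They were picked by name, with earlier results of these data known. A probe was assigned to a gene when its transcript accession belonged to that symbol in the rat RefSeq table. All 10 had a probe, with 13 probes in 23 spots per array, among 16581 genes with a symbol and 45598 probes in all. The RNA came from NR8383, a line of rat macrophages that began as cells rinsed from the lung of a healthy animal and that is partly attached and partly floating in culture. After 20 passages the cells were exposed to 9.25 µg/mL NiZnFe2O4, a mixed nickel, zinc and iron oxide by its formula, for 4 h, and 4 biological replicates were each hybridised to 1 one-colour array. All 4 samples belong to this single group. The design also has cells incubated without the particles, which were not analysed here. The values therefore show which receptor transcripts the exposed cells held and how they varied between replicates, and none of them shows an effect of the exposure. NR8383 is a single cell line, which limits it as a model of macrophages in the lung.

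Scavenger receptors are membrane proteins that bind modified lipoproteins, microbial surfaces, dead cells and inhaled particles and carry them into the cell. Their ligand sets overlap, and the classes differ in fold: class A receptors such as MARCO and MSR1 are collagen-like trimers, class B receptors such as CD36 and SCARB1 cross the membrane at both ends, and CD68 is a heavily glycosylated protein of lysosomes. The lectins MRC1, CLEC7A and SIGLEC1 recognise sugars, and CD14 hands bacterial lipid to Toll-like receptors. Alveolar macrophages use this set to clear dust and microbes from the air spaces.

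Transcripts of 6 of the 10 receptors were well above background on all 4 arrays: Cd36, Scarb1, Clec7a, Siglec1, Cd68 and Cd14. Among all genes with a symbol the share was 38.7%. Mrc1 and Msr1 passed on 3 arrays each. On at least 3 arrays 8 of the 10 receptors passed, against 41.5% of all genes. A further measure, passing on 1 to 3 arrays, held for 9.85% of all genes. Marco and Cd163 passed on none, as did 51.4% of all genes. The flag well above background is set per spot by the extraction software, and the dimmest probe to carry it had a processed signal between 9.23 and 13.0 intensity units on the different arrays. Brightness differed between arrays: the 75th percentile of the log2 signal over all probes was 5.38, 5.03, 4.55 and 4.63 on replicates 1 to 4. Levels are therefore given as the log2 processed signal minus this percentile, and a level of 1 probe is not compared with that of another.

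**Figure D1:**
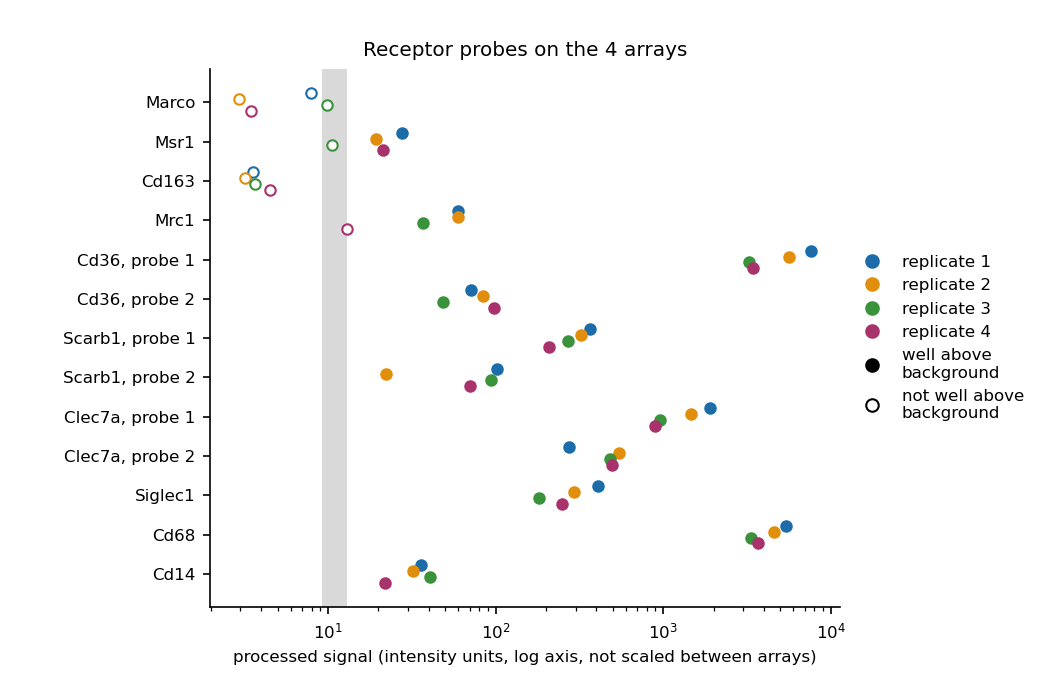
Processed signal (horizontal log axis, intensity units) of each receptor probe on the 4 arrays, with colours for replicates, filled points for spots well above background and open points for those that were not; probe 1 is the brighter of 2. The grey band spans the dimmest probes well above background on the 4 arrays (9.23 to 13.0), and the points of Marco and Cd163 are all open.

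The stretches of DNA ahead of the genes were looked at because the receptors fell on both sides of the detection limit. RefSeq promoter entries (rat assembly GRCr8) matched 7 of the 10 genes, all but Msr1, Scarb1 and Siglec1. Shown are the 250 bases before the start site for Cd68 and Mrc1, which held matches to the motifs searched, and for Marco and Cd163, the receptors not above background. They lie at chr10:54882442-54882691 (minus strand), chr17:82157475-82157724 (plus strand), chr13:34201256-34201505 (minus strand) and chr4:158770524-158770773 (plus strand). Capitals mark matches, on either strand, to the ETS core GGAAGT, to the AP-1 motif TGACTCA or TGAGTCA, and to the E-box CACGTG or CATGTG.
Cd68: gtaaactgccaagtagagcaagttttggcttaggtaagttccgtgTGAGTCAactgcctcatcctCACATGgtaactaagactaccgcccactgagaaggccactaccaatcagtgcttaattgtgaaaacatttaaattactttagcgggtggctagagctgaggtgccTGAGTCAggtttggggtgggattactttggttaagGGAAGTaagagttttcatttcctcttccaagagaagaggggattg
Mrc1: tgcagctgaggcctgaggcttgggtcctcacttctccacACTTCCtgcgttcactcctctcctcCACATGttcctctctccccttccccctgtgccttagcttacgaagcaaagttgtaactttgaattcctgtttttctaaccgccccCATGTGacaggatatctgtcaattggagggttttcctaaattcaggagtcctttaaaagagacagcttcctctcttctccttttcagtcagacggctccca
Marco: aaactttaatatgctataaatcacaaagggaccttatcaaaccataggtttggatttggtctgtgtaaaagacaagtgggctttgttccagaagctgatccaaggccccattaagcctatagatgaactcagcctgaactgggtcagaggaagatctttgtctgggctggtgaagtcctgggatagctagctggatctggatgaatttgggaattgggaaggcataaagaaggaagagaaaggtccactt
Cd163: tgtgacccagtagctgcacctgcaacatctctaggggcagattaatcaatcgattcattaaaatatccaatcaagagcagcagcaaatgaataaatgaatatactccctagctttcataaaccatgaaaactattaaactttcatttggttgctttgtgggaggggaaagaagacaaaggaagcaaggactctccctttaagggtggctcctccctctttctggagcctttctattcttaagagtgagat

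The Cd68 stretch held 2 AP-1 matches, beginning 205 and 80 bases before the start, an E-box at 185 and an ETS core at 45. The Mrc1 stretch held an ETS core at 211 and E-boxes at 186 and 101. None of the 3 motifs was found in the stretches of Marco, Cd163, Cd36, Clec7a and Cd14. Of 33469 promoter entries of the same length, 4.05% held the AP-1 motif, 19.2% the ETS core and 17.1% the E-box. The ETS core was first searched as AGGAAGT, which 7.08% of entries hold and which matched Mrc1 but not Cd68. The shorter GGAAGT was chosen after that result was seen, and its Cd68 match rests on that choice. The GC content of the 7 receptor stretches ran from 40.8% to 49.6%, below the median of 51.2% over all entries in each case. These matches describe letters in a window and not binding.

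Of the class A receptors, Msr1 was measurable on most arrays and Marco was not. Msr1, which takes up modified lipoproteins, gave 27.8, 19.3, 10.6 and 21.3 intensity units on replicates 1 to 4. The replicate 3 spot was the lowest and the only one not well above background, and on that array 1 of 308 negative control spots, all of 1 probe, was at least as bright after background subtraction. Marco, which binds bacteria and inert particles in the lung, gave 7.86, 2.93, 9.84 and 3.47 units. Its background-subtracted signal was equalled or exceeded by 4, 217, 1 and 96 of the 308 negative control spots on replicates 1 to 4. Replicates 1 and 3 thus lay at the upper end of the negative controls and replicates 2 and 4 within them, and only replicates 1 and 3 passed a looser flag that marks a spot as positive and significant against background. On all 4 arrays 8 of the 10 receptors passed that flag, against 50.9% of all genes.

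Cd163, whose protein removes complexes of haemoglobin and haptoglobin and shares with MARCO a scavenger receptor cysteine-rich domain, gave 3.56, 3.21, 3.67 and 4.49 units. Between 5 and 15 of the 308 negative control spots per array were at least as bright. Only replicate 4 passed the looser flag. With 1 probe each for Marco and Cd163, a low signal on the array is the whole measurement, and a transcript that the probe does not match would go unseen.

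The class B receptor Cd36, which takes up fatty acids and oxidised lipoproteins, was the receptor measured with the most spots. Its brighter probe, A_44_P1081705, was printed in 10 spots and gave 7674, 5661, 3235 and 3429 intensity units on replicates 1 to 4, from the 8 or 9 spots per array without an outlier flag. After scaling, the levels were 7.53, 7.44, 7.10 and 7.11, with a mean of 7.29 ± 0.22 (SD, n = 4). Replicates 1 and 2 were higher and replicates 3 and 4 lower, with a ratio of 1.34 between the highest and the lowest array.

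Repeat spots of 1 hybridisation show how precisely an array was read and hold no variation between cultures. The SD between spots of the brighter Cd36 probe was 0.04, 0.06, 0.04 and 0.08 log2 units on replicates 1 to 4. The lowest spot used on replicates 1 and 2 stood at 7.35 and the highest on replicates 3 and 4 at 7.26. With 4 samples of 1 group, whether replicates 1 and 2 differ from the other 2 was not tested. Replicates 1 and 2 lay above replicates 3 and 4 under all 6 settings examined for the signal. These were the 75th percentile over all probes or over probes above background, quantile normalization, no scaling, normexp correction, and removal of local deviations. Unscaled values keep the brightness of the arrays, which was itself higher on replicates 1 and 2. Without scaling and under normexp, but not on the main scale, Scarb1, Siglec1, Mrc1 and Cd68 had the same split, so those settings add little for Cd36. For Cd68 the split also held under quantile normalization and removal of local deviations, 4 of the 6 settings in all. Its SD under those was 0.07 and 0.02, where that of Cd36 was 0.32 and 0.30. Counts over the 6 settings below carry the same limits. On replicate 4, 1 flagged spot gave 621 units, where the spots used gave 3272 to 3805. In RNA from whole cultures, fewer cells that express a gene and less of its RNA per cell cannot be told apart.

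**Figure D2:**
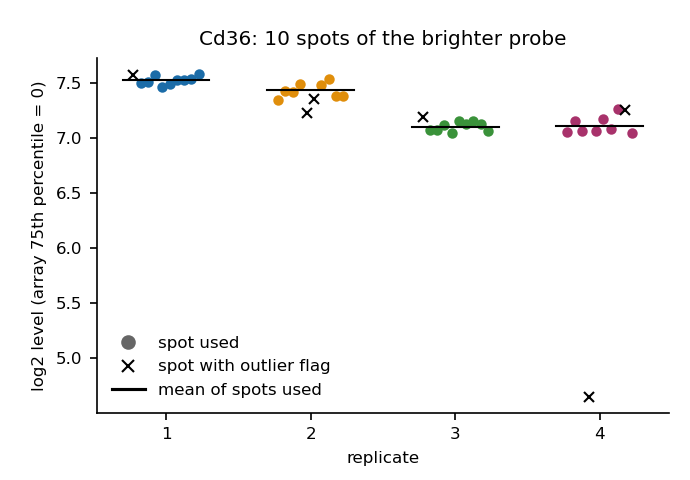
Log2 level (vertical axis, 0 at the 75th percentile of the array) of the 10 spots of the brighter Cd36 probe on each replicate, with points for spots used, crosses for spots with an outlier flag and lines for the mean of the spots used. The spots used on replicates 1 and 2 lie at or above 7.35 and those on replicates 3 and 4 at or below 7.26.

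The dimmer Cd36 probe, A_44_P1144488, did not follow the brighter one. It gave 71.2, 84.7, 48.6 and 97.9 units on replicates 1 to 4, and levels of 0.77, 1.37, 1.05 and 1.98. Replicate 4 was its highest array under all 6 settings. The level of the brighter probe minus that of the dimmer was 6.75, 6.06, 6.06 and 5.13, and the SD of this difference over the arrays was 0.67. Over 983 genes with at least 2 probes above background on all 4 arrays, the median of that SD was 0.23 and its 90th percentile 0.53. Which transcripts either probe binds was not tested.

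Scarb1, the high-density lipoprotein receptor of class B, gave 365, 324, 271 and 208 units with its brighter probe. The scaled levels were 3.13, 3.31, 3.53 and 3.07, with a mean of 3.26 ± 0.21 (SD, n = 4), and without replicate 3 the SD was 0.12. Replicate 4 was the lowest array under all 6 settings.

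The dimmer Scarb1 probe, A_44_P379244, gave 102, 22.1, 93.5 and 70.7 units, with replicate 2 far below the rest and an SD of 1.12. Against the median of the remaining replicates, its spot on replicate 2 deviated by -2.08 on the log2 scale. In the 10 rows and 10 columns around it, 55 spots of other single-spot probes had a median deviation of -1.25 on the same array. Around the brighter probe's spot the median deviation lay between -0.07 and 0.07 on the 4 arrays. With the local deviations removed the SD of the dimmer probe was 0.46, and replicate 2 was still its lowest array.

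Of the lectin genes, Clec7a and Siglec1 were above background on every array. Clec7a, which encodes the beta-glucan receptor Dectin-1, gave 1909, 1458, 962 and 899 units with its brighter probe, printed in 2 spots whose SD on an array was 0.07 to 0.14. Levels were 5.52, 5.48, 5.35 and 5.18, with a mean of 5.38 ± 0.15 (SD, n = 4); the SD without replicate 4 was 0.09. Replicate 4 was the lowest and replicate 1 the highest under all 6 settings. As for Cd36, replicates 1 and 2 lay above replicates 3 and 4 in each, with the limits given there.

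The dimmer Clec7a probe, A_64_P141160, ran the other way, with 276, 543, 483 and 495 units and levels of 2.73, 4.05, 4.36 and 4.32. Replicate 1 was its lowest array under all 6 settings, and replicates 2, 3 and 4 lay between 4.05 and 4.36. The 77 neighbouring single-spot probes had a median deviation of -0.08 on replicate 1, where the spot itself deviated by -1.59. The difference between the 2 probes varied over arrays with an SD of 0.88, against 1.12 for the Scarb1 pair. All 3 receptors with 2 probes exceeded the 90th percentile of 0.53 over genes, and the low neighbourhood on replicate 2 stood beside the Scarb1 value only.

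**Figure D3:**
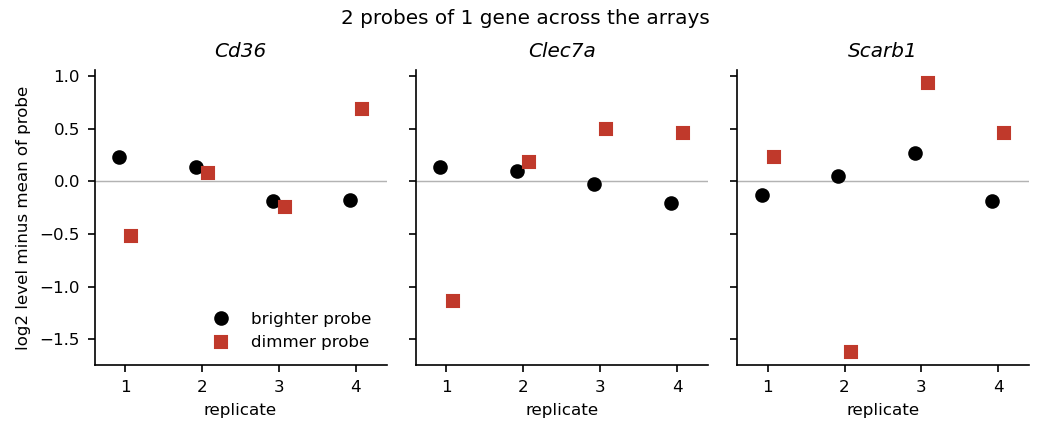
Log2 level minus the mean of the probe (vertical axis) on replicates 1 to 4 (horizontal axis) for the brighter (black circles) and dimmer (red squares) probe of Cd36, Clec7a and Scarb1. The brighter probes stay between -0.20 and 0.27. The dimmer Cd36 probe runs from -0.52 on replicate 1 to 0.69 on replicate 4. The dimmer Clec7a probe runs from -1.14 on replicate 1 to 0.50 on replicate 3, and that of Scarb1 from -1.62 on replicate 2 to 0.94 on replicate 3.

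Siglec1, a macrophage lectin that binds sialic acid, gave 406, 295, 182 and 248 units. Its levels were 3.29, 3.18, 2.95 and 3.33, with a mean of 3.18 ± 0.17 (SD, n = 4). Replicate 3 was lowest under all 6 settings, and the SD without it was 0.08. Mrc1, the mannose receptor, gave 60.1, 59.8, 36.9 and 13.0 units. Replicate 4 was lowest under all 6 settings and was the array on which Mrc1 was not well above background, although no negative control spot there was as bright as it: its background-subtracted signal was 13.0 and the highest control 8.24. The 63 single-spot probes around the Mrc1 spot had a median deviation of 0.03 on replicate 4.

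Cd68 had the smallest SD of the 6 receptors above background under 5 of the 6 settings; under normexp those of Cd14 and Scarb1 were smaller. This lysosomal glycoprotein gene gave 5426, 4588, 3333 and 3679 units and levels of 7.03, 7.13, 7.15 and 7.22, with a mean of 7.13 ± 0.08 (SD, n = 4). The highest and lowest arrays differed by a ratio of 1.14, and 4.53% of the 6418 genes above background had a smaller SD. The lowest level was that of replicate 1, without which the SD was 0.04. The order of the arrays changed with the scaling. The SD lay between 0.02 and 0.32 under the 6 settings, the highest being that without scaling, where the median over all genes was 0.38. The low rank among genes was not kept under normexp, where the SD of Cd68 was 0.20 and the median over all genes 0.19.

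Cd14, the co-receptor that passes lipopolysaccharide to TLR4, passed on all 4 arrays at 36.1, 32.1, 40.4 and 22.0 units, which was 2.25 to 3.91 times the dimmest probe above background on the same array. Levels were -0.21, -0.03, 0.78 and -0.17, with a mean of 0.09 ± 0.46 (SD, n = 4). Replicate 3 was highest under all 6 settings, and without it the SD was 0.10. The highest array exceeded the lowest by a ratio of 1.98. Of the genes above background 92.5% had a smaller SD than Cd14. This rank was not kept under normexp, where the SD of Cd14 was 0.19 and the median over all genes was also 0.19. That setting also adds an offset of 50 units, which is larger than the processed signal of Cd14 on any array. Whether the background correction or the offset changed the rank was not tested.

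Over the 6 receptors above background the median SD was 0.19 log2 units, against 0.23 over all 6418 genes above background, whose 10th and 90th percentiles were 0.10 and 0.43. This order turned under normexp, with 0.24 for the receptors and 0.19 for all genes. It also turned with the mean of all probes of a gene, with 0.28 and 0.23, and without scaling, with 0.43 and 0.38. With the percentile over probes above background the medians were close, at 0.217 and 0.223. For quantile normalization and removal of local deviations no median over all genes was computed. Normexp moved the SD of Cd36 to 0.47, of Clec7a to 0.35, of Siglec1 to 0.28 and of Cd68 to 0.20. Without replicate 3 the medians were 0.11 and 0.22. On this scale replicate 3 was the highest array for Cd14 and Scarb1 and the lowest for Siglec1 and Cd36.

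**Figure D4:**
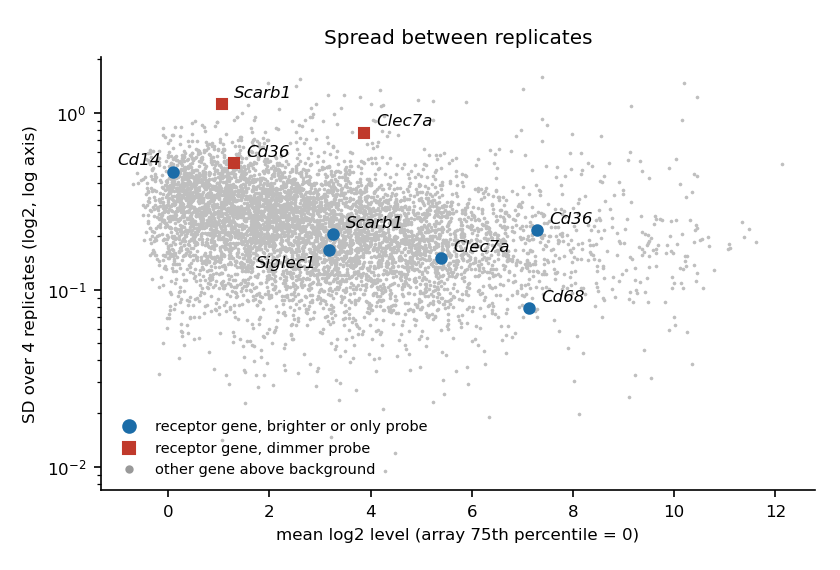
SD over the 4 replicates (vertical log axis, log2 units) against the mean log2 level (horizontal axis) for the 6418 genes above background (grey) and the receptor probes above background (blue circles, brighter or only probe; red squares, dimmer probe). Cd68 lies low at 0.08, Cd14 at 0.46 and the dimmer Scarb1 probe at 1.12.

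The other genes of receptor-mediated uptake were taken from 5 lists. Of 16 measured genes on the list of scavenger receptors outside the 10, 6 passed on all 4 arrays and 9 on none, with Scarf1 between. Those that passed include Cd44 and Cd47, and Cd47 is not itself a scavenger receptor. Scarb2, a lysosomal relative of CD36, stood at 2.71 ± 0.20, Cxcl16, a membrane chemokine that binds oxidised lipoprotein, at 3.00 ± 0.18, and Lrp1, a large endocytic receptor, at 0.46 ± 0.25 (SD, n = 4 each). Olr1, the lectin-like receptor for oxidised lipoprotein, stood at 0.78 ± 0.64 (SD, n = 4). The class A relatives Scara3, Scara5 and Colec12 passed on no array, as did Stab2 and Cd5l.

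Of 19 myeloid lectins and siglecs, 8 passed on all 4 arrays and 10 on none, with Siglec5 between. Lgals3, the abundant galectin of macrophages, stood at 11.08 ± 0.18 and the inhibitory lectin Clec12a at 1.18 ± 0.11 (SD, n = 4 each). Clec4e, the receptor Mincle, and Clec4d passed on no array, while Clec4a1, Clec4a2, Clec4a3 and Clec5a passed on all 4. Cd33 had no probe tied to its symbol. Members of the Clec4a family resemble each other closely, so their signals may be shared.

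Of 17 genes for the uptake of dying cells, 7 passed on all 4 arrays and 8 on none, with Gas6 and Adgrb1 between. Trem2, a lipid-sensing receptor, stood at 9.63 ± 0.25, Mfge8, a bridge to phosphatidylserine, at 1.90 ± 0.46 and the receptor kinase Axl at 0.07 ± 0.43 (SD, n = 4 each). The related kinase Mertk passed on no array.

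Partners and signalling genes of the receptors passed in 10 of 15 cases on all 4 arrays and in 5 on none. The CD14 partners Tlr4 and Ly96 stood at 1.19 ± 0.23 and 2.04 ± 0.11, and Tlr2 at 3.71 ± 0.13 (SD, n = 4 each). Syk, the kinase that Dectin-1 recruits, stood at 1.97 ± 0.21 (SD, n = 4), with 1 of its 2 probes above background on all 4 arrays. Its downstream adaptor gene Card9 passed on all 4 arrays. Hp and Hpx, whose plasma proteins capture haemoglobin and haem, and Lbp, which loads lipid onto CD14, passed on none.

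Of 18 transcriptional regulators linked to these receptor genes, 12 passed on all 4 arrays and 3 on none, with Klf4 and Rxra among the rest. Pparg and Nr1h3, lipid-sensing nuclear receptors known to act on Cd36 and cholesterol genes, stood at 5.54 ± 0.07 and 6.57 ± 0.19 (SD, n = 4 each). Spi1, the macrophage factor PU.1, stood at 3.83 ± 0.29 and Nfe2l2, the oxidant-responsive factor NRF2, at 3.82 ± 0.06 (SD, n = 4 each). Maf, Irf8 and Cebpa passed on no array. The shares above background on all 4 arrays were read against the 38.7% of all genes. They were 37.5%, 42.1% and 41.2% for the lists of scavenger receptors, lectins and uptake of dying cells, and 66.7% for both partners and regulators. In the same order, the median SD of the genes that passed was 0.19, 0.17, 0.31, 0.22 and 0.28, beside 0.23 over all genes above background. Lists of this size got no test, and genes such as Tyrobp and Lgals3 also serve as macrophage markers.

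**Figure D5:**
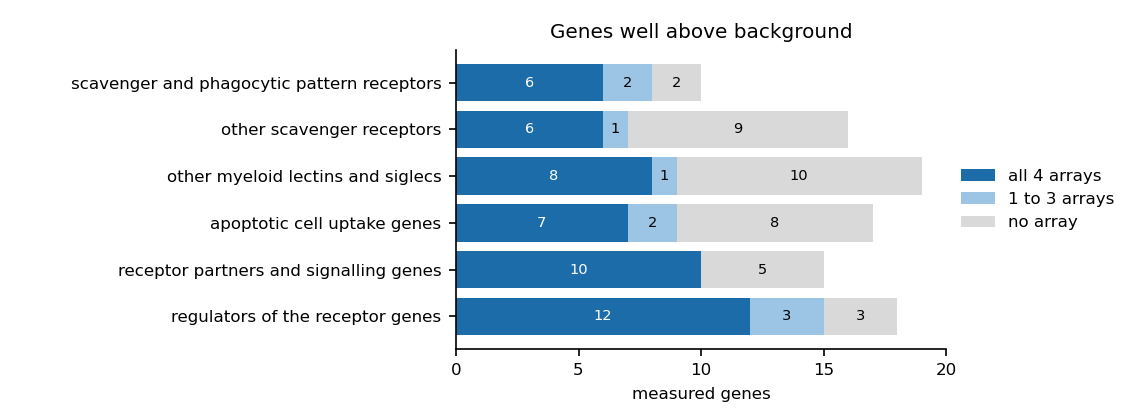
Number of measured genes (horizontal axis) well above background on all 4 arrays (dark blue), on 1 to 3 arrays (light blue) and on no array (grey) for the 10 receptors and for 5 lists of related genes. The bars for all 4 arrays reach 6, 6, 8, 7, 10 and 12 genes from top to bottom.

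Markers of the cell type were read on the same arrays. Of 12 measured macrophage markers 11 passed on all 4 arrays, Adgre1 being the exception. Those 11 include Cd68, itself a receptor described here, and Spi1, Tyrobp and Lgals3 of the lists above. The count is therefore not independent of the receptors and lists. Csf1r, Itgam, Ptprc and Lyz2 were among those that passed. Of other cell types, Batf3 passed among 6 dendritic cell markers, Foxj1 among 9 of lung epithelium, Dcn among 6 of fibroblasts and Camp among 7 of granulocytes and mast cells. Pecam1, Cdh5 and Vwf passed among 7 endothelial markers, and Lck and Nkg7 among 6 of lymphocytes. The endothelial and lymphocyte shares, 42.9% and 33.3%, were close to the 38.7% of all genes. Vwf and Foxj1 each passed with 1 of 2 probes. Epcam, Sftpc, Kdr, Col1a1 and Cd3e passed on no array, and Cd3d, the partner of Cd3e, passed on 3. The part of other cells in the receptor values was not tested. Each array had 58717 spots for rat transcripts, of which 21812 to 24981 were well above background and none was saturated. Across the genes above background Pearson's r between arrays lay between 0.975 and 0.986, as a description over genes that are not independent replicates.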

How the data were processed

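RNA of the 4 samples (100 ng each) was labelled with Cy3 and hybridised on 1 slide. The authors deposited scanner output as intensities, not scaled between arrays: processed signals with errors, raw medians, and 0 or 1 flags. The submitters' processing notes name Agilent Feature Extraction 11.0.1.1.

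Control spots (4259) and outlier-flagged spots (491 to 828 per array) were left out. Spots of a probe were averaged on the log2 scale, and a probe passed where at least 0.5 of its spots did. The 75th percentile over all probes was subtracted, although 25.4% of probes were above background on all 4 arrays; the percentile over those probes was an alternative. The probe with the highest mean stood for a gene. Accessions gave 21109 probes a symbol and 24489 none (RefSeq, GRCr8). Probe coordinates are not given, since the array design uses an older build. The rule for named genes took the 10 receptors in full, levels of up to 4 genes per list with the best known role, and other list members by arrays passed. Receptors and lists were chosen with earlier results of these data known. With 1 group, no comparison between groups could be made, and the number of arrays limits the precision. Alternatives covered flags, probes, scaling, normexp on the median spot signal (offset 50, limma 3.58.1, R 4.3.3) and leaving out replicates. Removing the median deviation within 10 rows and columns, and keeping outlier spots for the counts, were chosen after seeing the data. Python 3.11.15, numpy 2.4.6 and pandas 2.3.3 were used, and the spread calculation was tested on simulated data.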

Additional observations from a re-analysis of the deposited data

Results flagged for a closer look

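Dixon's ratio, the gap of the most extreme array to its nearest neighbour over the whole range, was computed for 26 values: the receptor probes above background on all 4 arrays and the list genes given with a level. It passed the 95% critical value for 1 of them, where chance gives about 1 in 20, and for 4.91% of genes above background. The gene was Ly96, the TLR4 partner that works with CD14. Its ratio was 0.8305, from a level of 2.20 on replicate 4 against levels from 1.96 to 2.00 in the remaining arrays. No receptor probe passed. Other list genes were not among the 26. One of them, the signalling adaptor gene Bcl10, picked here after its values were seen, had a ratio of 0.985, with 2.34 on replicate 3 and 2.45 on the others.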

How the results depend on the processing

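With the looser flag or with 3 of 4 arrays, 8 of the 10 receptors passed, Mrc1 and Msr1 being added; the shares of all genes were then 50.9% and 41.5%. The number was 6 when a gene needed each of its probes to pass, against 33.2% of all genes. With outlier spots kept it was also 6, and no share of all genes was computed there. It was 6 to 7 when each replicate was left out, against 38.8% to 40.1% of all genes. With no filter on dim probes every measured gene counts by construction: 10 receptors, 16 on the scavenger receptor list, 19 lectins and 17 genes for uptake of dying cells. The median SD of the receptors was 0.43 without scaling, against 0.38 over all genes, and ranged from 0.11 to 0.22 when each replicate was left out, the lowest without replicate 3. It lay between 0.19 and 0.28 under the other 6 settings. Normexp gave 0.24 against 0.19 over all genes and the mean of all probes 0.28 against 0.23, so receptors lay above all genes there, as without scaling, and below them on the scale reported. Normexp also moved 5 of the 6 single SDs by over 1.5 times. Levels shift with the reference of the scaling by construction, so the order of arrays was compared. The 75th percentile over probes above background moved an array by at most 0.08 log2 units from the mean shift. Replicates 1 and 2 moved up and replicates 3 and 4 down. The SD went from 0.08 to 0.04 for Cd68, 0.15 to 0.22 for Clec7a and 0.22 to 0.28 for Cd36. It went from 0.21 to 0.22 for Scarb1, 0.17 to 0.19 for Siglec1 and 0.46 to 0.45 for Cd14. The slide could not be fitted as a block, with 1 slide in all. No paired analysis was possible because there is 1 group. No mean or SD is given for the 4 receptors that failed the background flag on at least 1 array.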
